A study of Mus musculus with 6 samples.

Results

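Cells make cholesterol from acetyl-CoA through the mevalonate pathway, which ends in farnesyl diphosphate, and then through squalene and lanosterol. Fatty acids are built from the same acetyl-CoA by a separate set of enzymes. The 31 genes described here are the enzymes of these routes, their control by the sterol regulatory element binding proteins (SREBPs), and 3 genes of sterol transport. They were taken by gene symbol from 55450 genes in the deposited expression table, and all 31 were found there. Regulatory T (Treg) cells are CD4 T cells that express Foxp3 and hold other immune cells in check. The cells here had been sorted from MC38 tumours, which derive from a mouse colon carcinoma line, carried by C57BL/6 mice. One group of 3 libraries came from mice whose Treg cells had Tim-3 and the other group of 3 from mice whose Treg cells lacked it. Tim-3, encoded by Havcr2, is an inhibitory receptor of T cells. All tumours were about the same size when taken, per the labels. The allele, the driver of the deletion, and the age and sex of the mice are not given in the sources used here, and no label ties the libraries to separate mice. The tests below thus rest on library-to-library spread, part of which may be technical.

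When sterols in the endoplasmic reticulum run low, the carrier Scap takes SREBP precursors to the Golgi apparatus. There they are cut into transcription factors that switch on the sterol and fatty acid genes. When sterols are plentiful, Insig proteins hold Scap back. In T cells the pathway is known to be raised on activation and growth, because dividing cells need membrane lipid, and its isoprenoid products anchor small GTPases.

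Promoter windows running from 250 bases before to 50 bases after a RefSeq start site were available for 24 of the 31 genes, in 32 windows (build GRCm38.p6). They were searched on both strands for the sterol regulatory element TCACNCCAC, the CCAAT box of NF-Y and the GC box GGGCGG of Sp1, which are known partners of SREBPs. The sterol element was present in the window of 1 gene, Hmgcs1, whose enzyme makes HMG-CoA, and in 1.24% of 32851 windows of all genes. A CCAAT box was present in windows of 20 of the 24 genes (21 of 32 windows, 65.6%, against 37.4% of all windows), and a GC box in those of 21 genes (25 of 32 windows, 78.1%, against 35.7%). A match describes letters only, and these shares depend on base composition. The windows of Hmgcs1, of Sc5d (the nearest of the genes to the test threshold) and of Acat2 (the first enzyme of the route) are shown 5′ to 3′ on the gene's strand, with all matches on either strand in capitals. No matches overlapped. They lie at chr13:119690101-119690400 (plus strand), chr9:42264251-42264550 (minus strand) and chr17:12960676-12960975 (minus strand).
Hmgcs1: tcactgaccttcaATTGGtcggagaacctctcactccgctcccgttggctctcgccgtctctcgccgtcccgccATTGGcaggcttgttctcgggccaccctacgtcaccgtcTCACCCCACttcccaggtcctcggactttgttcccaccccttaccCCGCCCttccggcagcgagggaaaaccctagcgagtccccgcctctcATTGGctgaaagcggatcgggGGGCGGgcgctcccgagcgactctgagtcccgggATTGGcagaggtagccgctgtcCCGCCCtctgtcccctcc
Sc5d: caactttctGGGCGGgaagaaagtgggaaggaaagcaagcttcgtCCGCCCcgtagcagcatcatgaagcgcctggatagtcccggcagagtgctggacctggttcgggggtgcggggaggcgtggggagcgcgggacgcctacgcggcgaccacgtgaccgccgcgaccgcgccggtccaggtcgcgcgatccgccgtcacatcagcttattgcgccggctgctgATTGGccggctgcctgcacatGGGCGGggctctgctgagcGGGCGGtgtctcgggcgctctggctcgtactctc
Acat2: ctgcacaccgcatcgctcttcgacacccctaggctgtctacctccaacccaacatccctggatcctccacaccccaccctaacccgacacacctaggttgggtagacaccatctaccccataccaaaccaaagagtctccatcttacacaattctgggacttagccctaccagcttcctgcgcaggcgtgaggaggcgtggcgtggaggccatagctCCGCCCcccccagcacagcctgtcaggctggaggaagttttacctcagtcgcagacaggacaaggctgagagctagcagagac
The sterol element of Hmgcs1 begins 137 bases before the start site. The Sc5d window holds 1 CCAAT box and 4 GC boxes, and the Acat2 window holds 1 GC box and no CCAAT box.

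Levels are given as log2(TPM + 1). TPM counts transcripts per length out of a fixed total of 1000000, so levels of different genes can be compared. Read depth cannot be known from TPM. The libraries are called by the marks in their column names: sufficient A1, sufficient B1, deficient C1 and deficient D, and 1 library per group whose name carries a date (sufficient dated, deficient dated). Havcr2 stood at 5.70, 5.64 and 4.49 in the sufficient libraries (A1, B1, dated) and at 3.54, 4.27 and 2.55 in the deficient ones (C1, D, dated), so the groups did not overlap. Its difference of -1.83 had an adjusted p of 0.211 in limma. The deficient dated library had a summed level of 0.01 TPM over 4 Y-linked genes, against 139.5 to 186 TPM in the other 5. Within the dated pair, Tim-3 group and Y-linked level thus differed together, and their parts cannot be told apart. This limit holds wherever the dated pair or the date block is used below. The deficient dated library is also part of the main comparison, so Y-linked level was not balanced between groups there either. Treg markers were present in all 6 libraries (7 of 7 genes). They summed to 7186, 7107 and 4922 TPM in sufficient A1, B1 and dated. In deficient C1, D and dated they summed to 4421, 5668 and 5389 TPM, so deficient C1 was lowest. Markers of other cells differed between libraries. The 11 macrophage markers summed to 1128 TPM in deficient C1 and 686 TPM in sufficient B1, against 107 TPM in sufficient A1 and 15.7 to 22.4 TPM in the other 3. In deficient D, 6 of these 11 markers were listed at 0. The 5 fibroblast markers summed to 295 TPM in deficient C1, mostly Dcn, and to 1.79 to 39.3 TPM elsewhere. The 10 proliferation genes summed to 1032 TPM in deficient C1, 775 TPM in deficient D and 387 TPM in the deficient dated library, and to 498 to 646 TPM in sufficient libraries. Of the 6 B cell markers, Ms4a1 was listed at 0 throughout and Igkc made up most of the sum, which was 51.2 to 173 TPM in sufficient and 186 to 243 TPM in deficient libraries. The 7 dendritic cell markers, mostly the class II genes H2-Aa and H2-Eb1, summed to 549 TPM in deficient C1 and 17.3 to 248 TPM elsewhere. CD8 T and NK, neutrophil, epithelial and endothelial markers stayed at or under 71.2 TPM in sum in each library.

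No gene of the set changed by the test over all genes. A gene was tested if it reached 1 on the log2 scale in at least 3 libraries, which 29 of the 31 did, leaving out Abca1 and Scd1. Limma at a Benjamini-Hochberg adjusted p under 0.05 called 0 of the 29, where 0.206% of 12155 genes were called. At an unadjusted p under 0.05 there were 5 of 29 (17.2%), where 11.7% of all genes passed. Sc5d, Dhcr7, Acat2 and Fdps were the higher ones in deficient libraries (6.98% of all genes) and Stard4 the lower one (4.69%). The groups did not overlap at 6 genes (20.7%), these 5 and Idi1, where 17.6% of all genes did not overlap. That share lies near the background. Of them, 5 were higher and 1 lower in deficient libraries, against 10.9% and 6.73% of all genes. Differences were positive at 22 of 29 genes (75.9%), where 60.1% of all genes were positive, and their median was 0.29 against 0.09 over all genes tested. Blocked on the date mark, limma called 1 of the 29, Sc5d, where 1.97% of all genes were called. With weights estimated for each library it called 3, Sc5d, Dhcr7 and Stard4, where 7.81% of all genes were called. At an unadjusted p under 0.05 the block gave 6 of 29, the same 5 and Acly, where 19.7% of all genes passed.

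The library that stood apart most in this gene set was deficient C1. It held the highest value of 18 of the 29 genes (62.1%), where it was highest for 28.2% of all genes tested. Lowest for 15 genes (51.7%) was the sufficient dated library, which was lowest for 31.3% of all genes. Among undated and dated libraries separately, the difference had the same sign at 19 of 29 genes (65.5%), where 61.2% of all genes kept their sign. Without deficient C1 the median difference of the genes was 0.084, with 17 of 28 positive, beside a median of 0.052 over all genes. Without the sufficient dated library it was 0.11, with 20 of 28 positive, beside 0.030 over all genes. Deficient C1 was also the library with the most macrophage, fibroblast and proliferation transcripts, and their part in these values was not tested. In bulk libraries, more cells of a type and more RNA per cell cannot be told apart.

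**Figure D1:**
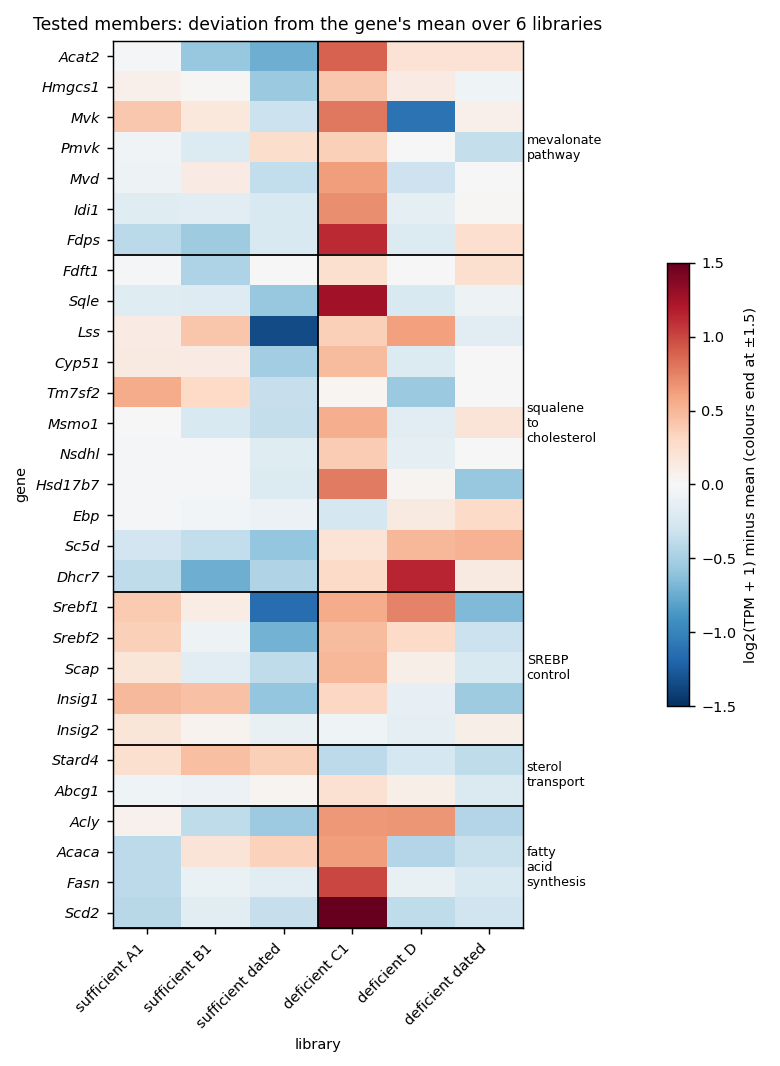
Deviation of each of the 29 tested genes from its own mean over the 6 libraries, in log2(TPM + 1), with genes in rows by role and libraries in columns (red above, blue below the mean; colours end at ±1.5). The deficient C1 column is red for most rows, Stard4 is blue in all 3 deficient libraries, and Sc5d and Dhcr7 are red in all 3.

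**Figure D2:**
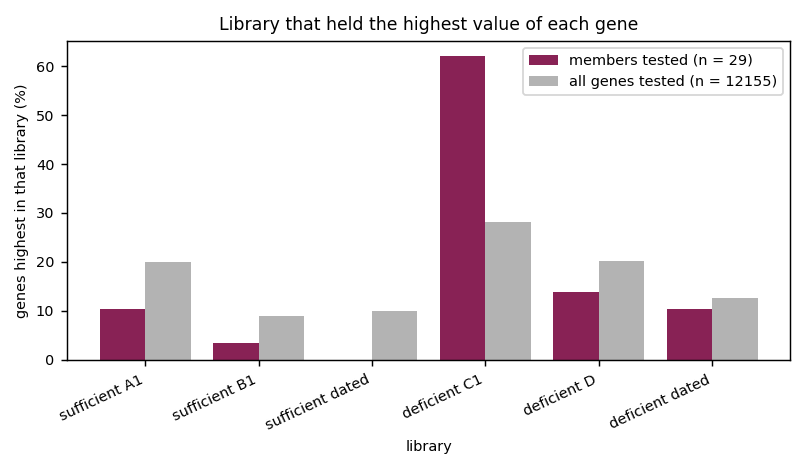
Percentage of genes whose highest value lay in each library, for the 29 tested genes of the set (purple) and all 12155 tested genes (grey). Deficient C1 was highest for 62.1% of the set and 28.2% of all genes.

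The mevalonate enzymes were all highest in deficient C1, 7 of 7. Their summed level was 353 TPM there, against 174 TPM in deficient D, 205 TPM in the deficient dated library and 153 to 167 TPM in sufficient libraries. The median difference was 0.31 with all 6 libraries and 0.13 without deficient C1 or without the sufficient dated library. Acat2, the cytosolic thiolase that joins acetyl-CoA units, stood at 3.76, 3.21 and 3.05 in sufficient A1, B1 and dated. It stood at 4.67, 3.99 and 4.0 in deficient C1, D and dated. All 3 deficient values were above all 3 sufficient ones, by at least 0.23. The means were 3.34 ± 0.37 and 4.22 ± 0.39 (SD, n = 3 each), a difference of 0.88 ± 0.30 (SE; limma adjusted p = 0.305), and 0.65 without deficient C1. Of the 75-base words in Acat2 transcripts, 33.9% also occur in transcripts of Acat3 or Tcp1, so its reads may be divided. Acat3, its close paralog, stood between 0.16 and 0.66. Tcp1, a chaperonin subunit, stood far higher than Acat2, at 7.23, 7.25 and 6.94 in sufficient A1, B1 and dated and at 8.05, 7.47 and 6.96 in deficient C1, D and dated. Its groups overlapped, with a difference of 0.36 (limma adjusted p = 0.626) and the highest value in deficient C1, and its part in the Acat2 values was not tested.

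Fdps, the synthase of farnesyl diphosphate, was the second most abundant of the 31 genes, with a mean level of 102 TPM. It stood at 6.16, 6.03 and 6.34 in sufficient A1, B1 and dated and at 7.69, 6.35 and 6.82 in deficient C1, D and dated. Deficient D lay 0.016 above the highest sufficient library, so the groups were barely apart. The difference was 0.78 ± 0.31 (SE; limma adjusted p = 0.390) and fell to 0.41 without deficient C1. Words shared with other genes made up 23.5% of those in its transcripts, mostly with predicted genes such as Gm43738, which overlaps it on the same strand. Idi1, the isomerase that readies isoprene units for joining, had sufficient values of 4.28, 4.30 and 4.23 and deficient values of 5.17, 4.31 and 4.48. Here too the groups were apart by only 0.012, at deficient D. Its difference was 0.38 ± 0.26 (SE; adjusted p = 0.586 in limma) and 0.13 without deficient C1, and 23.6% of its words occur in other genes. Both Fdps and Idi1 overlapped between groups after quantile normalization or median centring.

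The other 4 enzymes of this route overlapped between groups. Hmgcs1 had a difference of 0.31 (0.11 without the sufficient dated library), with sufficient values of 3.80 to 4.43 and deficient values of 4.29 to 4.76. Mvd, the decarboxylase that forms isopentenyl diphosphate, had 0.21. Mvk, the mevalonate kinase, had -0.16, and its deficient values ran from 1.67 in deficient D to 3.57 in deficient C1, the widest spread of the group. Pmvk, the next kinase, had a mean of 4.88 in both groups. The 95% interval of its difference, -0.55 to 0.55, does not exclude a change of up to that size either way.

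Enzymes from squalene to cholesterol had positive differences at 10 of 11 genes, with a median of 0.32. Leaving out the sufficient dated library gave 8 of 11 and a median of 0.11, and leaving out deficient C1 8 of 11 and 0.21. Their summed level was 276 to 322 TPM in sufficient and 365 to 402 TPM in deficient libraries, and here the deficient dated library was highest. Ebp, Msmo1 and Sc5d made up most of this sum. Of these, Ebp and Msmo1 overlapped between groups, and Sc5d had 40.9 to 50.2 TPM in sufficient and 71 to 88.9 TPM in deficient libraries. Sc5d and Dhcr7 act one after the other at the end of the route: the lathosterol oxidase Sc5d makes 7-dehydrocholesterol, which the reductase Dhcr7 turns into cholesterol. Sc5d stood at 5.68, 5.60 and 5.39 in sufficient A1, B1 and dated. In deficient C1, D and dated it stood at 6.17, 6.46 and 6.49. The lowest deficient value was 0.49 above the highest sufficient one. Unlike the mevalonate enzymes, Sc5d was lowest in deficient C1 among the deficient libraries. Its means were 5.56 ± 0.15 and 6.37 ± 0.18 (SD, n = 3 each), a 1.76-fold difference on the log2(TPM + 1) scale (0.82 ± 0.17, SE; limma adjusted p = 0.127). Blocked on the date mark it rose, at a limma adjusted p of 0.0476, and over all alternatives tried the adjusted p ran from 0.0121 to 0.541 while the difference stayed between 0.68 and 0.94. Undated libraries alone gave 0.68 and the dated pair 1.10. Sc5d lies on chromosome 9, 42251595 to 42264256, minus strand (GRCm38), and shares no 75-base word with another gene's transcripts.

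Dhcr7 (chromosome 7, 143823145 to 143848410, plus strand) was a low gene, with a mean of 3.34 TPM. Its values were 1.59, 1.24 and 1.53 in sufficient A1, B1 and dated and 2.27, 3.12 and 2.10 in deficient C1, D and dated. The groups were apart by 0.51, and deficient D was the highest library. The difference was 1.04 ± 0.34 (SE; limma adjusted p = 0.294), the largest of the tested genes of the set, and at this low level the log2(TPM + 1) scale understates it. It was 1.16 without deficient C1 and 0.73 without deficient D.

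Sqle, the squalene epoxidase and a rate-limiting step of the route, was high in deficient C1 at 4.70, while deficient D (3.21) and deficient dated (3.37) lay near the sufficient values of 3.26, 3.25 and 2.88. Its difference of 0.63 was 0.16 without deficient C1. Msmo1, a methylsterol oxidase, had a difference of 0.39 and Fdft1, the squalene synthase, had 0.32. Of the words in Fdft1 transcripts 21.8% also occur elsewhere, mostly in Ctsb, which overlaps it on the opposite strand. Lss, which closes squalene epoxide into lanosterol, had 0.53, set largely by the low value of 0.76 in the sufficient dated library, and was -0.0072 without it. Cyp51, the lanosterol demethylase, had 0.17. Nsdhl and Hsd17b7, which act together to remove methyl groups, had 0.15 and 0.17. Ebp, a sterol isomerase on chromosome X, was the most abundant of the 31 genes at a mean of 117 TPM. It varied little, from 6.78 to 6.85 in sufficient and 6.61 to 7.16 in deficient libraries, highest in the deficient dated one. Its difference was 0.11 (95% interval -0.29 to 0.51) and turned negative after quantile normalization (-0.025) and median centring (-0.028). Tm7sf2, a sterol reductase, had -0.34, the 1 negative difference in this group, and shares words with its neighbour Vps51.

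**Figure D3:**
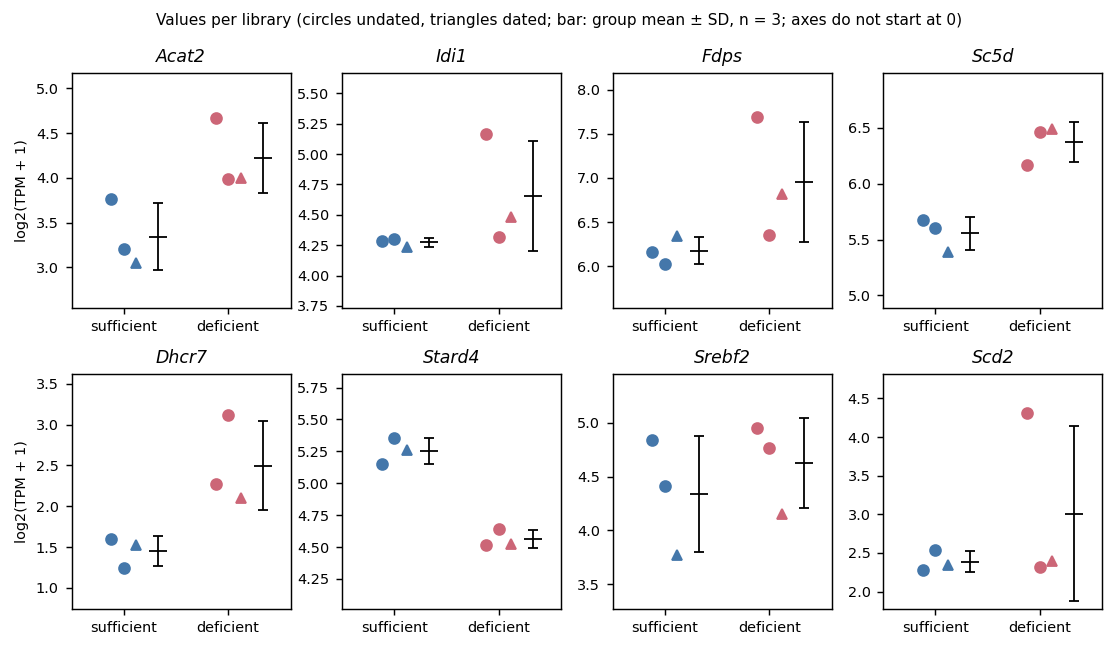
Values of 8 genes in log2(TPM + 1), 1 point per library (circles undated, triangles dated), with the group mean and SD (n = 3) as a black bar. Sc5d, Dhcr7, Acat2 and Stard4 are apart between groups, Idi1 and Fdps by 0.012 and 0.016, and Scd2 is high in deficient C1 alone.

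The SREBP genes and their controls overlapped between groups at 5 of 5 genes, as did most genes tested (17.6% of all genes did not overlap). Srebf1, whose products favour fatty acid genes, stood at 4.36, 4.08 and 2.82 in sufficient A1, B1 and dated and at 4.53, 4.72 and 3.31 in deficient C1, D and dated. Both dated libraries were low, so the split followed the date mark more than the group. The difference of 0.43 ± 0.50 (SE; limma adjusted p = 0.775) turned to -0.033 without the sufficient dated library. Srebf2, whose product drives the sterol genes, was also lowest in the dated libraries, at 3.77 and 4.16. Its other values were 4.84 and 4.41 in sufficient A1 and B1 and 4.95 and 4.77 in deficient C1 and D, a difference of 0.29 ± 0.33 (SE; limma adjusted p = 0.776) that was 0.0012 without the sufficient dated library. Scap had a difference of 0.23, and 0.043 without deficient C1. Insig1, itself a known SREBP target, had -0.23, with values of 4.59, 4.54 and 3.52 in sufficient and 4.41, 3.98 and 3.57 in deficient libraries. Insig2, the more abundant of the pair at a mean of 34.9 TPM against 17.0 TPM, had -0.077 (95% interval -0.48 to 0.33).

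Stard4 was the 1 gene of the set whose groups did not overlap with deficient libraries lower. It encodes a soluble protein that carries cholesterol between membranes. Its values were 5.15, 5.36 and 5.26 in sufficient A1, B1 and dated, and 4.52, 4.64 and 4.53 in deficient C1, D and dated. The groups were apart by 0.51 and both had a small spread, with means of 5.26 ± 0.10 and 4.56 ± 0.069 (SD, n = 3 each). The level was 1.62-fold lower in deficient libraries on the log2(TPM + 1) scale (-0.69 ± 0.17, SE; limma adjusted p = 0.183, and 0.0699 with the date mark as a block). Undated libraries alone gave -0.67, the dated pair -0.73, and leaving out deficient C1 -0.67. Abcg1, a sterol exporter induced by LXR receptors, had 0.072 ± 0.23 (SE; limma adjusted p = 0.929), from sufficient values of 3.47, 3.44 and 3.57 and deficient values of 3.76, 3.62 and 3.32. Its sign was negative after quantile normalization (-0.045) and median centring (-0.063). Abca1, the other exporter, stood between 0.14 and 0.45 in every library but deficient C1, where it was at 0.88, and was not tested.

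Fatty acid synthesis genes were high in deficient C1, with a summed level of 86.5 TPM there, 60.0 TPM in deficient D and 33.2 TPM in the deficient dated library, against 32.3 to 41.1 TPM in sufficient libraries. Acly, which frees acetyl-CoA from citrate for both routes, made up most of this. It stood at 5.02, 4.57 and 4.41 in sufficient A1, B1 and dated and at 5.61, 5.62 and 4.52 in deficient C1, D and dated, so the deficient dated library lay among the sufficient values. Its difference was 0.58 ± 0.33 (SE; limma adjusted p = 0.532), split into 0.82 for undated libraries and 0.11 for the dated pair. Scd2, a desaturase that makes monounsaturated fatty acids, stood at 4.31 in deficient C1 and between 2.28 and 2.54 in the other 5 libraries. The difference of 0.62 ± 0.52 (SE; limma adjusted p = 0.676) was -0.030 without deficient C1. Fasn, the fatty acid synthase, followed the same pattern, at 4.09 in deficient C1 and 2.70 to 3.00 elsewhere, and its difference of 0.44 was 0.046 without that library. Acaca, the carboxylase that makes malonyl-CoA, was low at 0.39 to 1.45 and had a difference of -0.097, with 26.8% of its words shared with other genes. Scd1, not tested, was listed at 0 in sufficient A1, stood at 0.77 and 0.043 in sufficient B1 and dated, and was highest in deficient C1 at 1.55. Scd1 shares 3.15% of its words with other genes, mainly Scd2. The order of libraries for Scd2, Fasn and Sqle put deficient C1 first, the library with 1128 TPM of macrophage markers. Sufficient B1, with 686 TPM of them, stood at 2.54 for Scd2, 3.00 for Fasn and 3.25 for Sqle. It came next after deficient C1 for Scd2 and Fasn, but not for Sqle. Sufficient A1 and dated had 2.28 and 2.35 for Scd2, 2.70 and 2.94 for Fasn, and 3.26 and 2.88 for Sqle. Deficient D and dated had 2.32 and 2.40 for Scd2, 2.99 and 2.86 for Fasn, and 3.21 and 3.37 for Sqle. The part of other cells in these values was not tested.

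**Figure D4:**
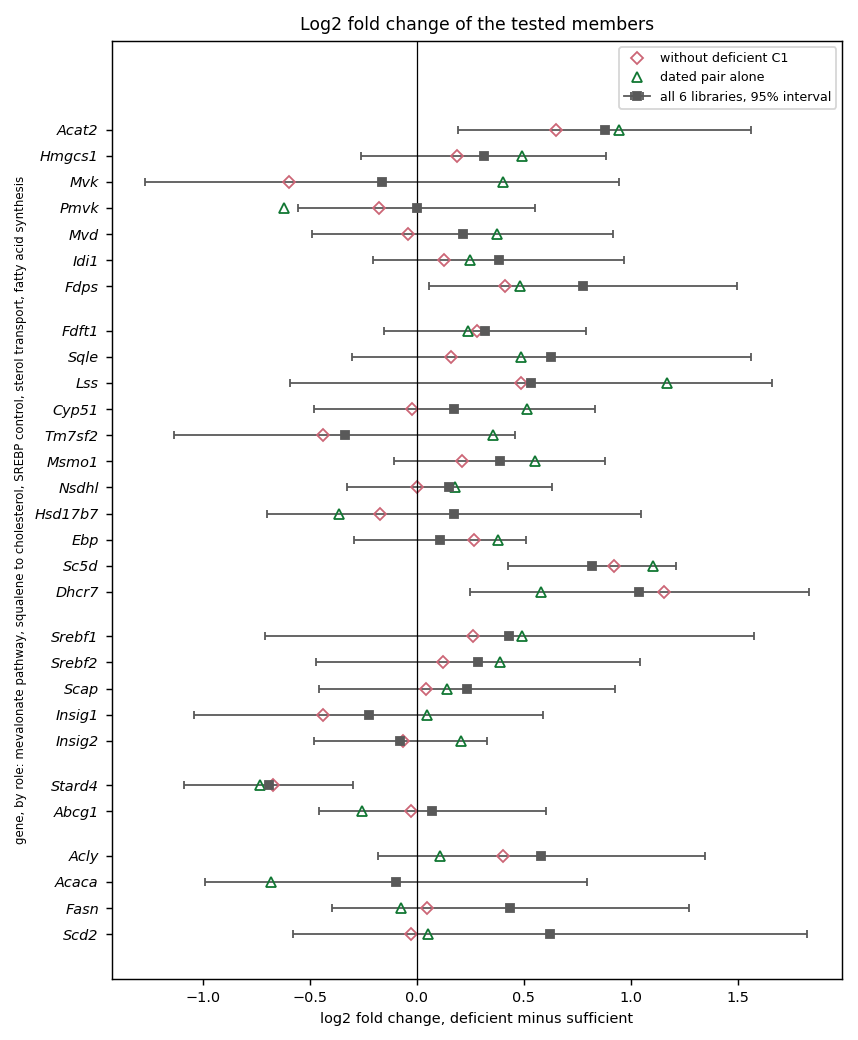
Log2 fold change of the 29 tested genes (squares, deficient minus sufficient, with the 95% interval from limma), the value without deficient C1 (diamonds, where the gene was still tested) and the difference within the dated pair (triangles), by role. The intervals of Sc5d, Dhcr7, Acat2, Fdps and Stard4 exclude 0 before adjustment, and Scd2 and Fasn move to -0.030 and 0.046 without deficient C1. Acaca has no diamond, since without deficient C1 it did not pass the filter on low values.

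**Figure D5:**
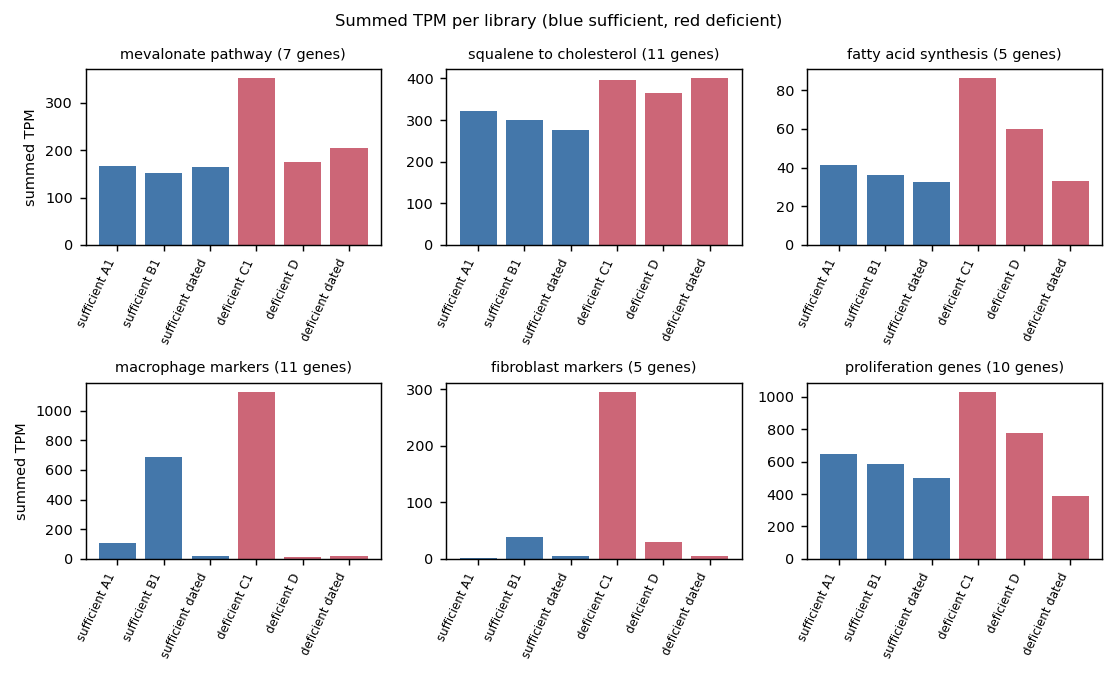
Summed TPM per library (blue sufficient, red deficient) for 3 groups of the set and 3 marker lists, all axes from 0. Deficient C1 is highest in 5 of the 6 panels, and the deficient dated library is highest for the steps from squalene to cholesterol.

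Of 64 further genes of lipid metabolism, 55 were tested and 0 were called by limma over all genes (0.206% called overall), with 6 at an unadjusted p under 0.05 (11.7% overall), 4 of them higher and 2 lower. Blocked on the date mark, 1 of the 55 was called (1.97% overall). This was Dgat2, a final enzyme of triglyceride assembly, which rose by 1.25 at an adjusted p of 0.0381 in the blocked limma fit. Its values were 3.15, 3.62 and 2.08 in sufficient A1, B1 and dated and 4.74, 4.69 and 3.16 in deficient C1, D and dated. They overlapped between groups but deficient libraries were higher within both date classes, and over all alternatives the adjusted p ran from 0.0381 to 0.921. Acss2, which makes acetyl-CoA from acetate and is a known SREBP target, had values of 3.32, 3.22 and 2.72 in sufficient and 4.11, 4.29 and 3.83 in deficient libraries. Its groups did not overlap, and its difference was 0.99 ± 0.26 (SE; limma adjusted p = 0.211, and 0.0227 to 0.795 over all alternatives). Acss1, its mitochondrial counterpart, had 0.81. Acsl4 went the other way, at -0.64 (limma adjusted p = 0.390), and its groups did not overlap either. Of the 55 genes, 7 were higher and 3 lower in deficient libraries without overlap, against 10.9% and 6.73% of all genes. In the list of supply, elongation and esterification genes, which holds Dgat2, Acss2, Acss1 and Acsl4, 13 of 20 tested genes were positive. Their median was 0.19, where 60.1% of all genes were positive with a median of 0.09. The median of the list was 0.026 without deficient C1, 0.066 without the sufficient dated library, 0.34 without sufficient A1 and 0.058 after median centring.

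Among the genes of LXR receptors, esterification and lysosomal release, 8 of 10 were positive with a median of 0.081. After quantile normalization 5 of 10 were positive (median -0.012), and after median centring 4 of 10 (median -0.054). These settings also shifted the background. Of all 12155 genes, 7309 (60.1%) were positive in the main fit, 6106 after quantile normalization (median 0.0027) and 5505 after median centring (median -0.041). Npc2, which moves cholesterol out of lysosomes, had -0.44, with sufficient values of 7.44, 7.47 and 7.38 and deficient values of 6.96, 6.95 and 7.05 that did not overlap with them (limma adjusted p = 0.242). Nr1h2, an LXR receptor, had 0.49. For SREBP processing 3 of 7 genes were positive, with Fbxw7, a ubiquitin ligase subunit for nuclear SREBPs, at -0.39 and Erlin1, a membrane protein of the endoplasmic reticulum, at 0.76. The isoprenoid branch had 3 of 8 positive, with the prenyltransferase subunits Rabggtb at -0.35 and Rabggta at 0.40. Fatty acid uptake and oxidation had 7 of 10 positive, with Hadhb, a subunit of the mitochondrial trifunctional protein, at 0.39 and Cpt1a, the gatekeeper of mitochondrial import, at 0.48. None of these passed over all genes in the main fit or with the date block. Over all alternatives the limma adjusted p of Npc2 ran from 0.0242 to 0.950. Me1, a malic enzyme that supplies NADPH for fatty acid synthesis, was below the filter on low values and was chosen after its values were seen. It stood at 0.070, 0.11 and 0.54 in sufficient libraries and at 4.06, 2.37 and 0.96 in deficient C1, D and dated, and without the filter its limma adjusted p was 0.605.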

How the data were processed

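RNA from sorted tumour Treg cells was read as 75 bp pairs after Nextera XT library preparation, per the labels' protocols. The submitters' processing notes list STAR, RSEM and limma, with no versions, and the builds GRCm38 and mm10. The authors deposited log2 values. Raised back to linear scale minus 1, each library summed to 999999 to 1000001, so they are log2(TPM + 1). Nothing names strand, so opposite-strand overlaps cannot be separated. All 55450 identifiers matched GENCODE M21.

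Groups were compared with limma 3.58.1 in R 4.3.3 (lmFit, eBayes with a mean-variance trend, no covariate) on genes reaching 1 in at least 3 of 6 libraries, with Benjamini-Hochberg adjustment over 12155 genes. Simulated data with 12155 genes, 200 of them changed, had 18.8%, 66.3% and 87.0% of the changed genes called at log2 changes of 1, 2 and 3. The genes and lists were chosen with earlier results of these data known. Values in every library are given for genes past the threshold with or without the date block, genes whose groups do not overlap, and the 2 of largest difference per role. Of other lipid genes, those past the threshold and the 2 of smallest p per list are named, and Acsl4 and Me1 besides. Filters, normalization, the pseudocount, variance models, weights and left-out libraries were varied. Python 3.11.15 and matplotlib 3.10.9 drew the figures.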

Additional observations from a re-analysis of the deposited data

How the results depend on the processing

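No paired analysis was possible because the columns carry no replicate number of the titles. No gene of the set passed in limma under 15 of 17 alternatives; array weights called 3 (Sc5d, Dhcr7 and Stard4, where 7.81% of all genes were called) and the date block called 1. Leaving out any 1 library called 0 (2 to 6 genes of the set at an unadjusted p under 0.05, where 7.77% to 19.5% of all genes passed). The 6 were without the deficient dated library, 20.7% of the set beside 19.5% of all genes. The number of all genes called was 25 (16 higher, 9 lower). It was 1 with no filter on low values, 38 after quantile normalization (16 higher, 22 lower), 30 after median centring (11 higher, 19 lower), 4 without the mean-variance trend, 949 with array weights, 240 with the date block, 235 without both dated libraries and 0 without sufficient B1 and deficient C1, a pair chosen after seeing the data (657 at an unadjusted p under 0.05). Leaving out 1 library gave 0 to 128: leaving out sufficient A1 or B1 gave 0 (1127 and 960 at an unadjusted p under 0.05), deficient D 1, deficient C1 14, the sufficient dated library 23 and the deficient dated library 128. The 25 were all among the 240. Groups did not overlap at 6 genes of the set, at 16 without both dated libraries (51.6% of all genes then) and at 6 to 11 with 1 library left out, where 23.7% to 39.3% of all genes did not overlap. These were 10 of 29 without deficient D (23.7% of all genes) and 11 of 29 (37.9%) without the deficient dated library, near the 39.3% of all genes then. Median centring moved the median of all genes by -0.135, and the median of the set was then 0.15. The median of the set was 0.084 without deficient C1, 0.11 without the sufficient dated library and 0.12 without sufficient B1 and deficient C1. The direction held in each alternative for 18 of 29 genes. It reversed for Abcg1 after quantile normalization (-0.045), median centring (-0.063) and without sufficient B1 and deficient C1 (-0.055). Ebp reversed after quantile normalization (-0.025), median centring (-0.028) and without both dated libraries (-0.029). Array weights reversed Cyp51 (-0.13), Mvd (-0.15) and Pmvk (0.15), which was 0.31 without both dated libraries, and Hsd17b7 was -0.15 without sufficient B1 and deficient C1. With 1 library left out, signs changed for Abcg1 (-0.027 to 0.20), Acaca (-0.32 to 0.098), Cyp51 (-0.045 to 0.32), Ebp (-0.010 to 0.26), Hsd17b7 (-0.17 to 0.50), Lss (-0.0072 to 0.88), Mvd (-0.044 to 0.42), Mvk (-0.60 to 0.35), Pmvk (-0.18 to 0.18), Scd2 (-0.030 to 0.97) and Srebf1 (-0.033 to 0.87). With any 1 library left out, the difference stayed within 1.5 times its value for 4 of 29 genes and did not for 25. The cause was not tested. With 3 libraries a group and unknown depth, changes of low genes are poorly resolved.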
